A study of Mus musculus with 19 samples.

Results

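Trophoblast regulator genes were examined for 3 repressive histone marks in mouse embryonic stem cells (ESCs) with and without *Dnmt1*. The set held 7 of 23640 annotated genes, *Elf5*, *Cdx2*, *Eomes*, *Hand1*, *Tfap2c*, *Gata3* and *Gcm1*. They were chosen by name, and the tiles overlapping each gene and its promoter (2 kb upstream to 1 kb downstream of the gene start) were taken, which gave 71 of 1327469 tiles of 2 kb. Chromatin immunoprecipitation with sequencing (ChIP-seq) of H3K27me3, H3K9me2 and H3K9me3 had been done on control cells, labelled Wildtype, and on *Dnmt1* conditional knockout (cKO) cells, labelled DNMT1KO. For every mark there was a pair of libraries at day 4, 1 per group, while at day 8 each group had 2. An input library had been made from control cells only. All samples were labelled as ESCs of background strain E14, whereas the methods of the study describe a C57BL/6 line in which tamoxifen-activated Cre removes loxP-flanked *Dnmt1*. Cells were grown in serum with leukaemia inhibitory factor. The statistical methods of the study describe its ChIP-seq as a single measurement. Whether the 2 day 8 libraries of a group came from separate cultures is not stated, so p-values rest on a spread between libraries that may be technical. In the fits that spread was moderated toward its trend over all features of like level, so it is not one gene's own spread alone.

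The trophoblast is the outer lineage of the early embryo, which forms the placenta. *Cdx2*, *Eomes*, *Gata3*, *Tfap2c* and *Elf5* encode transcription factors that establish or maintain trophoblast stem cells, while *Hand1* and *Gcm1* act in differentiated trophoblast, *Hand1* in giant cells and *Gcm1* in the labyrinth. Most of these genes are silent in ESCs. H3K27me3 is deposited by Polycomb repressive complex 2, mostly at CpG-rich promoters with little DNA methylation, whereas H3K9me2 and H3K9me3 mark other kinds of silent chromatin. The *Elf5* promoter is known to be methylated in ESCs and unmethylated in trophoblast stem cells, and DNMT1 is the enzyme that copies DNA methylation after replication.

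Levels below are reads per tile in a window divided by the mean reads per tile of that library, so 1 is an even spread over the genome. ChIP libraries held 5669098 to 26181489 reads in tiles. Reads were missing from cKO libraries in 1 of the 25 tiles of *Dnmt1*, chr9:20744001-20746000 (NCBIM37). The methods of the study do not give the position of the deleted part. In this tile the 6 day 8 control libraries of the 3 marks held 7 to 11 reads each, and 5 of the 6 cKO libraries held none. At day 4 the same tile held 23 reads over the 3 control libraries and 9 over the 3 cKO libraries. Several day 8 libraries stood apart. The control H3K27me3 library of replicate 1 was the highest control of its mark at the *Cdx2*, *Eomes*, *Hand1*, *Tfap2c* and *Gata3* promoters. At *Tfap2c* it had 20.7, against 13.7 in the day 4 control and 13.3 in day 8 control replicate 2. The cKO H3K9me3 library of replicate 1 held the fewest reads. The cKO H3K9me2 library of replicate 2 had a median of 1.18 (log2) against its controls over the 1087 promoters richest in control H3K27me3, against 0.14 for replicate 1. The cKO H3K27me3 library of replicate 2 had a median of -1.32 against its controls over the same promoters, and replicate 1 had -0.58.

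The starts of these genes differ in CpG content, and the sequences of 4 starts are shown, 3 from the members low in H3K27me3 and 1 from a member rich in it. Each runs 5′ to 3′ from 250 bases before to 50 bases after the start and was read from the NCBIM37 genome, with CpG dinucleotides in capitals.
Elf5 outer start, chr2:103251595-103251894, plus strand: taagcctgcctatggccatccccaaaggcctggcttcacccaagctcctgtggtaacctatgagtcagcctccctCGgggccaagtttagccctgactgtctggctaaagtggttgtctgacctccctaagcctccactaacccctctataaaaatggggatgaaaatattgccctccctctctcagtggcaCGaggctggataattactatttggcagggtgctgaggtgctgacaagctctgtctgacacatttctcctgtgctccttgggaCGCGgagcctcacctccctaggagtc
Elf5 inner start, chr2:103263969-103264268, plus strand: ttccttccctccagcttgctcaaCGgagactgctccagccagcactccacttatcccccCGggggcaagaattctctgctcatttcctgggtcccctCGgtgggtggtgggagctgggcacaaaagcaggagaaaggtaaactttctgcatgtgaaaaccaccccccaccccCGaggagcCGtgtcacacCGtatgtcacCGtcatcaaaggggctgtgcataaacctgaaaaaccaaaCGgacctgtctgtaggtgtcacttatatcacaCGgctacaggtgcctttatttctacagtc
Gcm1 start, chr9:77899515-77899814, plus strand: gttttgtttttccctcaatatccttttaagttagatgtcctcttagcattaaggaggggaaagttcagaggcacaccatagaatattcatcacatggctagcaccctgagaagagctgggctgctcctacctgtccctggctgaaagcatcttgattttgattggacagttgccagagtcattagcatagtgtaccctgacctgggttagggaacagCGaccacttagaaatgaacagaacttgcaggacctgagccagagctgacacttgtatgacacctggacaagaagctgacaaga
Cdx2 start, chr5:148118797-148119096, minus strand: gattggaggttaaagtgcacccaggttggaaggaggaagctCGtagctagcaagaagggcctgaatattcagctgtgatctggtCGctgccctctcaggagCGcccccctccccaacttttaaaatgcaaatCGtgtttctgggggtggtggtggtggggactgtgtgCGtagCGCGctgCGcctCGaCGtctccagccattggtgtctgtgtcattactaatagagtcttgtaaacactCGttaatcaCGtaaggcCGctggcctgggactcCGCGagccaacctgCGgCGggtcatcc
The *Elf5* outer start holds 4 CpGs in 300 bases and the *Gcm1* start 1, while *Cdx2* holds 17. The motif searched was CG, which reads the same on both strands. Over all gene starts the median was 11, and 74.9% of them held as many CpGs as the *Elf5* outer start or more, 95.2% as many as *Gcm1* and 39.1% as many as *Cdx2*. *Elf5* has a second annotated start 12374 bases further into the gene, with 9 CpGs. This short window did not separate all members, since *Eomes* also holds 9, *Gata3* 12 and *Hand1* 15. In the whole 3 kb promoter window the counts were 29 for *Elf5* and 40 for *Gcm1*, against 80 for *Gata3*, 85 for *Hand1*, 130 for *Cdx2*, 167 for *Tfap2c* and 181 for *Eomes*. The annotation lists *Tfap2c* as Tcfap2c. On NCBIM37 the genes lie at chr2:103251845-103291146 (*Elf5*, plus strand), chr5:148112381-148118846 (*Cdx2*, minus), chr9:118387330-118395250 (*Eomes*, plus), chr11:57642207-57646320 (*Hand1*, minus), chr2:172375093-172384122 (*Tfap2c*, plus), chr2:9778705-9811661 (*Gata3*, minus) and chr9:77899765-77913431 (*Gcm1*, plus).

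In control cells 5 of the 7 promoters carried strong H3K27me3 and 2 did not. *Cdx2*, the factor that specifies the trophectoderm, was highest, at 22.1 at day 4 and 28.2 and 20.3 at day 8 (23.5 ± 4.14, SD, n = 3). *Eomes* followed at 17.3 ± 2.69, *Hand1* at 16.1 ± 2.28, *Tfap2c* at 15.9 ± 4.18 and *Gata3* at 14.5 ± 2.97 (SD, n = 3 each). The libraries of each of these genes overlapped with those of the next in order, so their order is within the spread. *Elf5* had 1.79 at day 4 and 1.66 and 1.97 at day 8 (1.81 ± 0.154), and *Gcm1* had 1.18, 1.28 and 1.01 (1.16 ± 0.133). *Elf5* and *Gcm1* overlapped neither with each other nor with the other members. The 5 high promoters lay between the 97.7th and the 99.5th percentile of all promoters, *Elf5* at the 67.8th and *Gcm1* at the 52.2nd. A control mean of 10 or more was found at 4.6% of all promoters. The description of the set names *Elf5* as held by DNA methylation and the others by Polycomb, and *Gcm1* went against it here, since its promoter held no more H3K27me3 than a typical promoter.

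**Figure D1:**
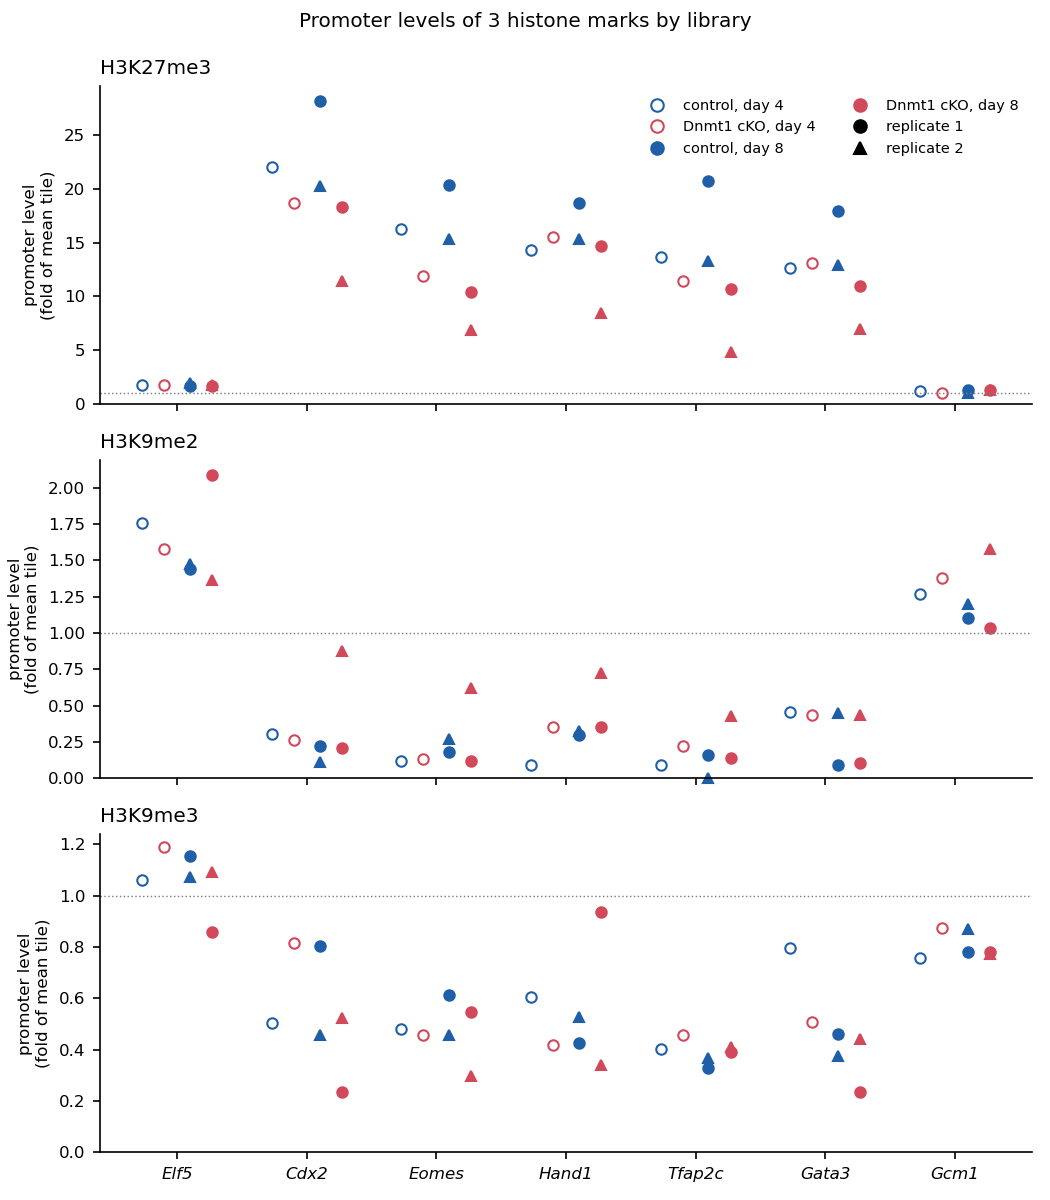
Promoter level (vertical axis, fold of the library's mean tile, linear from 0) of each gene for H3K27me3, H3K9me2 and H3K9me3. Each point is 1 library, blue for control and red for cKO, open at day 4 and filled at day 8, with circles for replicate 1 and triangles for replicate 2, and the dotted line is an even spread. For H3K27me3 the filled red points of *Cdx2*, *Eomes*, *Hand1*, *Tfap2c* and *Gata3* sit below the filled blue ones, while *Elf5* and *Gcm1* stay between 1.01 and 1.97.

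H3K9me2 was distributed the other way. *Elf5* had the highest control level, with 1.75 at day 4 and 1.44 and 1.47 at day 8 (1.56 ± 0.172, SD, n = 3), at the 95.3rd percentile of all promoters. *Gcm1* followed at 1.19 ± 0.0852, at the 85.6th percentile. The other 5 had means between 0.0836 (*Tfap2c*) and 0.331 (*Gata3*), and no control library of any of them exceeded 0.454. The *Tfap2c* value rests on 3, 8 and 0 reads in the control libraries. H3K9me3 was near or below the mean tile at all 7. *Elf5* was highest at 1.1 ± 0.0522, the 88.5th percentile of all promoters and close to its level of 1.14 in the input. *Gcm1* had 0.801 ± 0.0594, the 74.2nd percentile, and the others lay between 0.366 (*Tfap2c*) and 0.588 (*Cdx2*).

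The relation between marks within a promoter was tested with limma over the 9 control ChIP libraries. Each level is relative to the mean tile of its own library, and the methods of the study list a separate antibody for each mark. A difference between marks is thus one of relative enrichment, not of amount. H3K27me3 exceeded H3K9me2 at 5 of 7 members, where 60.7% of all promoters passed in that direction. The log2 difference was 6.71 at *Cdx2* (SE 0.279, adjusted p = 6.84e-14) and 5.54 at *Gata3* (SE 0.395, adjusted p = 1.47e-10), with the other 3 between 6.06 and 7.53. It was 0.21 at *Elf5* (SE 0.186, adjusted p = 0.319) and -0.05 at *Gcm1* (SE 0.209, adjusted p = 0.828). The contrast did not pass at those 2 genes. Centred on 100 kb windows, *Elf5* also passed, with 0.49 and adjusted p = 0.0276. Against H3K9me3, H3K27me3 was higher at all 7 members, where 51.8% of all promoters passed in that direction, by 4.69 to 5.32 at the 5 high promoters, 0.70 at *Elf5* (adjusted p = 0.00272) and 0.51 at *Gcm1* (adjusted p = 0.0422). The *Gcm1* call was lost when any 1 of the 3 sets of control libraries was left out, with adjusted p between 0.0545 and 0.208.

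H3K27me3 formed broad stretches around the 5 high genes. Counting outward from the highest tile while the control mean stayed at 2 or more, the run was 36 kb long around *Cdx2*, 34 kb around *Gata3*, 26 kb around *Tfap2c*, 22 kb around *Eomes* and 18 kb around *Hand1*. The highest tile reached 32.7 in an intron of *Cdx2* (chr5:148116001-148118000), 29 in an intron of *Gata3* (chr2:9804001-9806000), 24.8 over a coding exon of *Hand1* (chr11:57642001-57644000), 22.1 upstream of *Eomes* (chr9:118384001-118386000) and 17.7 over the *Tfap2c* start (chr2:172374001-172376000). *Elf5* had a run of 6 kb that peaked at 3.02 in the tile of its inner start (chr2:103264001-103266000). No tile of *Gcm1* reached 2, and its highest, 1.91, lay over the last part of the gene (chr9:77912001-77914000). A level is an average over the cells, so a low level in all cells and a high level in few cannot be told apart.

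**Figure D2:**
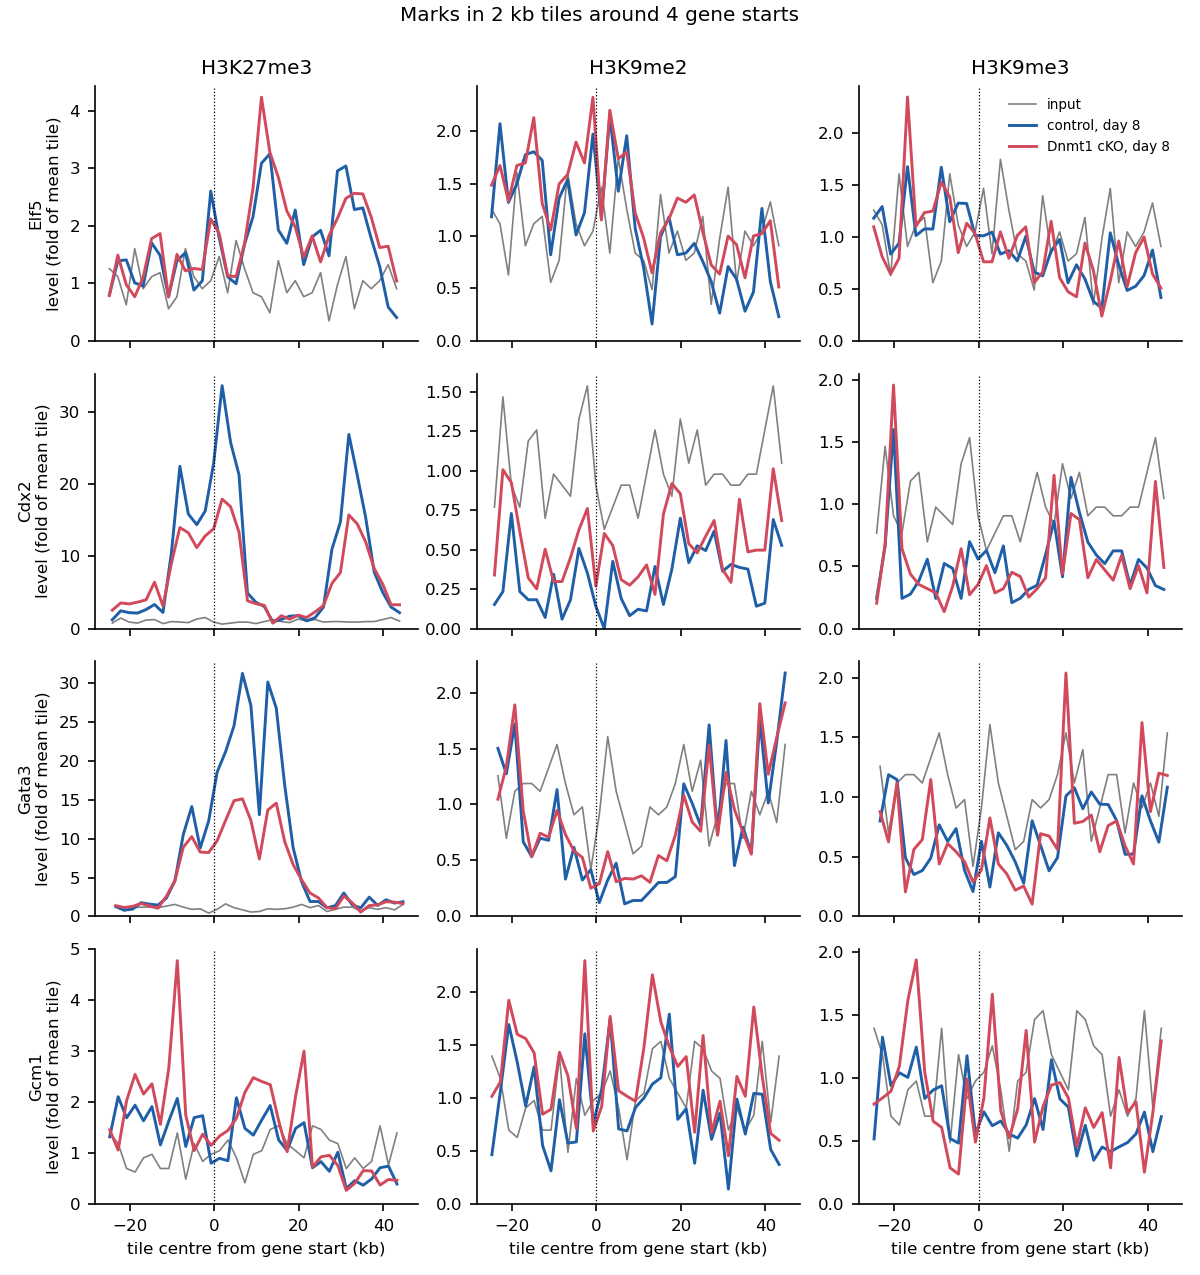
Level of each mark in 2 kb tiles (vertical axis, fold of the library's mean tile, scales differ between panels) against the distance of the tile centre from the gene start along the direction of transcription (kb), for *Elf5*, *Cdx2*, *Gata3* and *Gcm1*. Blue and red lines are means of 2 day 8 control and 2 day 8 cKO libraries, grey is the input. The highest *Cdx2* tile falls from 33.6 to 17.9 and the highest *Gata3* tile from 31.3 to 15.1, while the *Elf5* inner-start tile is at 3.25 in control and 3.28 in cKO.

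Within *Elf5* the 2 ends of the gene differed. This division at the inner start was chosen after the values were seen and has no test. In the 8 tiles before the inner start, control H3K9me2 was 1.58 at day 4 and 1.31 and 1.61 at day 8. In the 14 tiles from the inner start to the gene end it was 0.713, 0.673 and 0.731. All control libraries were thus above 1 in the upstream stretch and below 1 in the rest of the gene. H3K9me3 went the same way, with 1.04 ± 0.0985 before and 0.645 ± 0.0184 after (SD, n = 3), while H3K27me3 was 1.82 ± 0.0397 before and 2.09 ± 0.0197 after. The input was also higher before, at 1.11, than after, at 0.923, and its part in these values was not tested. In a 3 kb window around the inner start, control H3K27me3 was 2.63 at day 4 and 3.48 and 2.86 at day 8, above every library of the outer window. The tiles that hold the starts overlapped, with 2.55, 3.7 and 2.8 at the inner and 1.91, 2.17 and 3.04 at the outer start. H3K9me2 in the inner window was 0.635, 0.45 and 0.409. *Gata3* also has an inner start, 11434 bases into the gene. In a window of the same kind control H3K27me3 was 18.7, 27.9 and 19 there, each above the same library at the outer start. In the tiles that hold the *Gata3* starts the order was reversed. Control H3K27me3 was 9.89, 16.3 and 9.9 in the inner-start tile and 14.8, 22.4 and 14.7 in the outer-start tile.

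At day 8 H3K27me3 was lower in cKO than in control libraries at the 5 high promoters, and the groups did not overlap at any of them. *Tfap2c*, the gene of the transcription factor AP-2γ, had 20.7 and 13.3 in control and 10.7 and 4.85 in cKO libraries. *Eomes*, a T-box factor, had 20.4 and 15.3 in control and 10.4 and 6.84 in cKO libraries. *Gata3* had 17.9 and 12.9 against 11 and 6.95. At each of these the lower control library stood above the higher cKO library, as it did for *Cdx2*, at 28.2 and 20.3 against 18.3 and 11.4. *Hand1*, a basic helix-loop-helix factor, came closest to overlapping, with 18.6 and 15.3 against 14.7 and 8.42. Libraries did not overlap at 45.1% of all promoters with cKO lower, and at 12.5% with cKO higher.

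By limma over all promoters none of the 7 members passed an adjusted p of 0.05, where 12.2% of all promoters passed, 11.6% lower and 0.539% higher. The log2 change was -1.20 at *Tfap2c* (SE 0.528, adjusted p = 0.121), -1.06 at *Eomes* (SE 0.558, adjusted p = 0.205) and -0.80 at *Gata3* (SE 0.54, adjusted p = 0.339). It was -0.73 at *Cdx2* (SE 0.724, adjusted p = 0.537) and -0.60 at *Hand1* (SE 0.597, adjusted p = 0.534). *Tfap2c* was the only member with an unadjusted p under 0.05, at 0.0246, as had 6261 of 23375 promoters. The 2 cKO libraries differed in level at *Cdx2*, *Eomes*, *Hand1*, *Tfap2c* and *Gata3*. Against the control mean, replicate 1 lay between -0.76 (*Eomes*) and -0.20 (*Hand1*), and replicate 2 was further down at every one, reaching -1.77 at *Tfap2c*. The controls differed in the same order, with replicate 1 above replicate 2 at each of these genes, as at *Tfap2c* with 20.7 and 13.3. Whether the size of the change differed between replicates was not tested. Without cKO replicate 2 the changes thus ranged from -0.76 to -0.20, and none passed. In a further fit the median of promoters of like GC content was subtracted and the library's overall median added back. The changes were then -0.58 at *Gata3*, -0.56 at *Eomes*, -0.44 at *Tfap2c*, -0.33 at *Cdx2* and -0.32 at *Hand1*, and none passed. These values still hold the shift common to all promoters, whose median change in that fit was -0.24.

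Promoters elsewhere in the genome moved in the same way, so the size of the change was read against them. Over the 1087 promoters with control H3K27me3 of 10 or more, the median change was -0.96, with a 10th and a 90th percentile of -1.31 and -0.66. The 5 high members held the 17.2nd (*Tfap2c*) to the 92.4th (*Hand1*) percentile of that class. The changes also followed the CpG class. For promoters with 160 or more but under 200 CpGs, the class of *Eomes* and *Tfap2c*, the median was -0.94. For 120 or more but under 160, the class of *Cdx2*, it was -0.76, and for 80 or more but under 120, the class of *Hand1* and *Gata3*, it was -0.59. All 5 changes lay between the 10th and the 90th percentile of their class. The median over all tested promoters was -0.34.

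**Figure D3:**
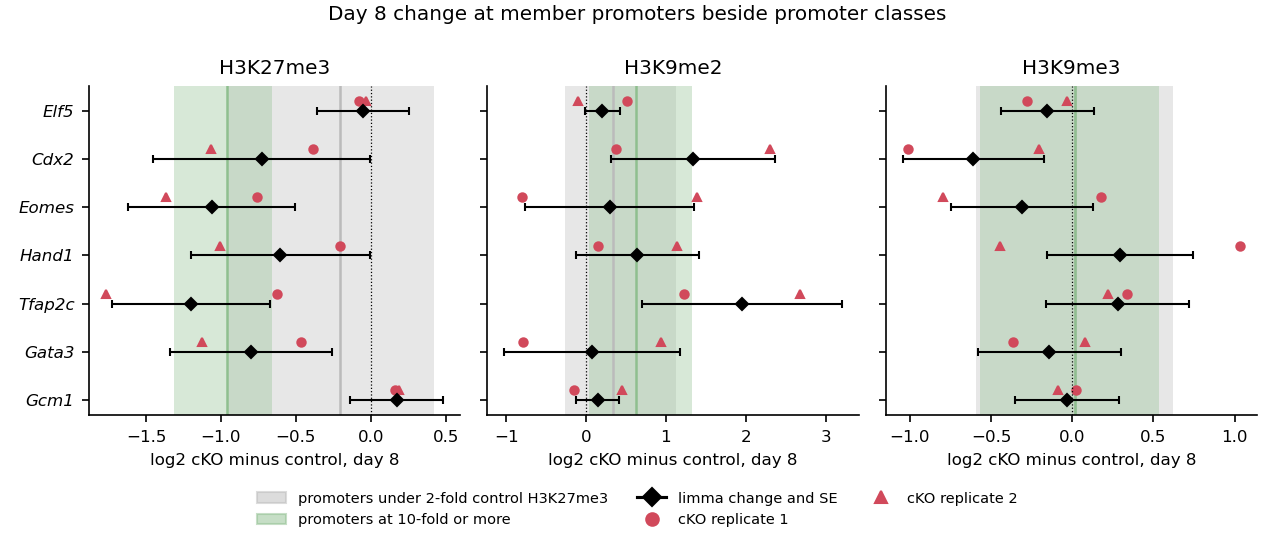
Change at day 8 (horizontal axis, log2 cKO minus control) of each gene for the 3 marks. Black diamonds and bars are the limma change and its SE, red circles and triangles are cKO replicates 1 and 2 against the mean of the controls, and shaded bands span the 10th to the 90th percentile of all promoters with control H3K27me3 under 2 (grey) or of 10 or more (green), with a line at the median. The H3K27me3 diamonds of *Cdx2*, *Eomes*, *Hand1*, *Tfap2c* and *Gata3* lie at -0.60 to -1.20, those of *Elf5* and *Gcm1* at -0.05 and 0.17.

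*Elf5* and *Gcm1*, the 2 members with low H3K27me3, did not share this pattern. The *Elf5* promoter had 1.66 and 1.97 in day 8 control and 1.71 and 1.77 in cKO libraries, and *Gcm1* had 1.28 and 1.01 against 1.27 and 1.3. Control and cKO libraries overlapped at both. The log2 change was -0.05 at *Elf5* (SE 0.305, adjusted p = 0.934) and 0.17 at *Gcm1* (SE 0.31, adjusted p = 0.756). Their CpG classes had medians of 0.10 (20 to 39 CpGs, *Elf5*) and -0.21 (40 to 79, *Gcm1*). The exact binomial 95% limits of the cKO over control ratio from the pooled day 8 reads were 0.777 to 1.19 at *Elf5* and 0.872 to 1.47 at *Gcm1*, and they cover counting error only. Around the inner *Elf5* start the values were 3.48 and 2.86 in control and 4.24 and 3.27 in cKO libraries, which overlapped.

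Over the whole gene regions the picture was alike. Day 8 H3K27me3 changes were -0.99 at *Eomes* (SE 0.368, adjusted p = 0.2), -0.86 at *Tfap2c*, -0.83 at *Gata3*, -0.69 at *Cdx2* and -0.68 at *Hand1*, with 0.08 at *Elf5*. No region of any gene passed (0%), while 5170 of 23435 regions had an unadjusted p under 0.05. The *Gcm1* region had 1.55 and 1.29 in control and 1.86 and 1.79 in cKO libraries, which did not overlap, for a change of 0.36 (SE 0.162, adjusted p = 0.249). Regions did not overlap with cKO higher at 17.1% of all genes, and with cKO lower, as at the 5 high members, at 40.6%. At day 4 the *Gcm1* region was at 1.29 in control and 1.61 in cKO, a ratio of 1.25 with limits of 1.03 to 1.52. In H3K9me2 and H3K9me3 no member's region passed, where 0.149% and 0% of all regions did. The H3K9me2 changes were positive at all 7, from 0.15 at *Gata3* to 0.91 at *Cdx2*, where the median over all regions was 0.28. *Elf5* changed by 0.33 (SE 0.208, adjusted p = 0.672). The *Elf5* region had 0.906 and 1.05 in control and 1.24 and 1.21 in cKO libraries, and the libraries of *Hand1*, *Tfap2c* and *Gcm1* did not overlap either, with cKO higher in all 4, where 34.1% of all regions had cKO higher without overlap and 8.53% had it lower. In H3K9me3 the changes ran from -0.72 at *Cdx2* (SE 0.338, adjusted p = 0.382) to 0.32 at *Gcm1*, the 2 members whose libraries did not overlap, where 20.4% of all regions had cKO lower without overlap and 27.3% had it higher.

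Per tile, H3K27me3 was lower in cKO at 40 and higher at 31 of the 71 member tiles, and none passed the adjusted threshold, where 0.244% of all tiles did. The tiles divided by gene. All 5 tiles of *Cdx2*, 6 of *Eomes* and 4 of *Hand1* had lower means, as did 5 of 7 in *Tfap2c* and 13 of 18 in *Gata3*, whereas 17 of 22 in *Elf5* and 7 of 9 in *Gcm1* had higher means. By limma an unadjusted p under 0.05 was found at 8 tiles, 6 of them lower (3 each in *Eomes* and *Tfap2c*) and 2 higher (*Gcm1*). Over all tiles tested, 121254 of 1255417 had an unadjusted p under 0.05, 70768 of them higher and 50486 lower. The median change over all tiles was 0.05, and the share of all tiles with higher means was not counted. The largest change was in a coding-exon tile of *Eomes* (chr9:118388001-118390000), where 196 and 172 control reads stood against 85 and 70 cKO reads. Its log2 change was -1.35 (SE 0.366, adjusted p = 0.132), and it passed without cKO replicate 1 (adjusted p = 0.0403) and by limma-voom (adjusted p = 0.0431). In *Tfap2c* the largest was -1.25 over a coding exon (chr2:172376001-172378000, adjusted p = 0.32), with 267 and 184 control against 146 and 68 cKO reads, which passed without cKO replicate 1 (adjusted p = 0.0151). In *Gcm1* it was 0.87 over a coding exon (chr9:77908001-77910000, adjusted p = 0.265), with 20 and 24 control against 40 and 46 cKO reads. In *Elf5* it was 0.59 in an intron next to the inner start (chr2:103266001-103268000, adjusted p = 0.541), with 38 and 24 control against 51 and 46 cKO reads.

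H3K9me2 at day 8 was tested in the same way, and none of the 7 promoters passed, where 0.0128% of all promoters did. *Elf5*, the member with the most of this mark, had 1.44 and 1.47 in control and 2.08 and 1.36 in cKO libraries, so the 2 cKO libraries lay on either side of the controls. Its change was 0.21 (SE 0.219, adjusted p = 0.846). *Gcm1* had 1.1 and 1.2 against 1.03 and 1.58, with a change of 0.15 (SE 0.266, adjusted p = 0.881). At the 5 low promoters the changes were positive, from 0.08 (*Gata3*) to 1.95 (*Tfap2c*, SE 1.25, adjusted p = 0.846), and rested on few reads. The median H3K9me2 change was 0.39 over all promoters and 0.63 over the 1087 promoters with control H3K27me3 of 10 or more. *Cdx2* had 0.22 and 0.109 in control and 0.211 and 0.877 in cKO libraries, from 11, 4, 9 and 45 reads, and the high value was the cKO library of replicate 2. Without that library the changes at *Cdx2* and *Tfap2c* were 0.37 and 1.23, and those at *Eomes*, *Gata3* and *Gcm1* turned to -0.80, -0.79 and -0.15. At *Cdx2* the remaining cKO library lay between the controls. At *Tfap2c* it held 6 reads against 8 and 0 in control, so the value of 1.23 rests on the control library without reads. *Hand1* was the only member whose libraries did not overlap, with cKO higher, where 32.3% of all promoters had cKO higher without overlap and 6.27% had it lower. Of the 71 tiles 54 had higher and 17 lower H3K9me2 means, 5 had an unadjusted p under 0.05 and none passed. Nor did any of 1254661 tiles (0%), of which 80852 had an unadjusted p under 0.05, 43603 higher and 37249 lower. The median change over all tiles was 0.01.

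H3K9me3 gave no member past the threshold either, where 0.0898% of all promoters passed. *Elf5* had 1.16 and 1.07 in day 8 control and 0.859 and 1.09 in cKO libraries, a change of -0.15 (SE 0.286, adjusted p = 0.932). *Cdx2* had the largest, -0.61 (SE 0.435, adjusted p = 0.763), with 0.802 and 0.457 in control and 0.234 and 0.523 in cKO libraries, the low value being the shallow library of replicate 1. *Hand1* reached 0.937 in that library against 0.425 and 0.526 in control and 0.341 in the other cKO library, so its change of 0.29 became -0.45 without it. *Tfap2c* was the only member whose libraries did not overlap, with cKO higher by 0.28, where 16.9% of all promoters had cKO higher without overlap and 21.1% had it lower. Of the 71 tiles, 42 had lower and 29 higher H3K9me3 means, and none passed, where 0.00851% of all tiles did. The median change over all tiles was -0.04. The widest spread was in *Gata3*, whose tiles ran from -1.95 (chr2:9798001-9800000, adjusted p = 0.579), from 11 and 12 control and 0 and 3 cKO reads, to 1.76. In *Gcm1* the largest change was 1.52 in an intron (chr9:77902001-77904000, adjusted p = 0.561).

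At day 4 there was 1 library per group and no test. H3K27me3 was lower in cKO at *Eomes*, with 11.9 against 16.2 in control, a ratio of 0.734 with limits of 0.657 to 0.82. *Tfap2c* had 11.4 against 13.7 (0.835, limits 0.744 to 0.938) and *Cdx2* 18.7 against 22.1 (0.847, limits 0.773 to 0.927). *Hand1* had 15.5 against 14.3 (1.09, limits 0.978 to 1.21) and *Gata3* 13.1 against 12.6 (1.04, limits 0.905 to 1.2). The limits excluded 1 for the first 3 genes and included it for the other two. *Elf5* was at 1.78 against 1.79, and *Gcm1* at 1.07 against 1.18. In the window around the inner *Elf5* start cKO was higher, with 3.8 against 2.63, from 111 and 91 reads. The whole *Elf5* region was at 2.27 against 1.99, a ratio of 1.14 with limits of 1.03 to 1.27, which cover counting error only. Lower values in cKO were found at 61.5% of all promoters at day 4, and the 1087 promoters richest in H3K27me3 had a median change of -0.26. H3K9me2 at *Elf5* was 1.58 in cKO and 1.75 in control at day 4 (0.898, limits 0.626 to 1.29), and H3K9me3 was 1.19 and 1.06 (1.12, limits 0.746 to 1.71). For the 5 high promoters H3K9me2 rested on 3 to 16 reads per library at day 4. The highest ratio, 3.91 at *Hand1*, came from 16 cKO and 3 control reads, with limits of 1.12 to 21. Whether the change differed between the days was not tested.

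A wider list of 24 other trophoblast genes was taken with the members. Of these 17 had control H3K27me3 of 2 or more, as had 29.1% of all promoters. At day 8, 6 of 24 passed as lower and none as higher, where 11.6% and 0.539% of all promoters passed. The share passing as lower depended on the control level. It was 21.3% at a log2 level of 1 to 2, 25.5% at 2 to 3 and 13.6% at 3 and over. The list's median change was -0.73, against -0.34 for all promoters. It was -0.56 for promoters with control H3K27me3 of 2 to 10 and -0.96 for those of 10 or more. *Sox21*, a SOX-family factor, fell by 1.84 on the log2 scale (-1.84, SE 0.457, adjusted p = 0.00292), from 17 and 14.5 in control to 6.01 and 3.21 in cKO libraries. *Id2*, an inhibitor of helix-loop-helix factors, changed by -1.83 (adjusted p = 2.07e-05), from 6.41 and 5.13 to 1.93 and 1.32. *Tead4*, which acts upstream of *Cdx2*, changed by -1.22 (adjusted p = 0.0051). Also among those past the threshold, and named after their values were seen, were *Bmp4* (-1.16) and *Cdh3* (-1.08). In these fits the SE was 0.321 at *Tead4*, 0.457 at *Sox21* and 0.739 at *Tfap2a*, which had the highest control mean of the list, 25.9, and changed by -0.99 without passing (adjusted p = 0.39). The count of 6 fell to 0 without control replicate 1 and to 1 without control replicate 2 or cKO replicate 2. In H3K9me2 and H3K9me3 none of the 24 passed. At *Tfap2a* and *Fgfr2*, the highest and the lowest of the list in H3K27me3, control H3K9me2 was 0.0646 and 0.111.

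**Figure D4:**
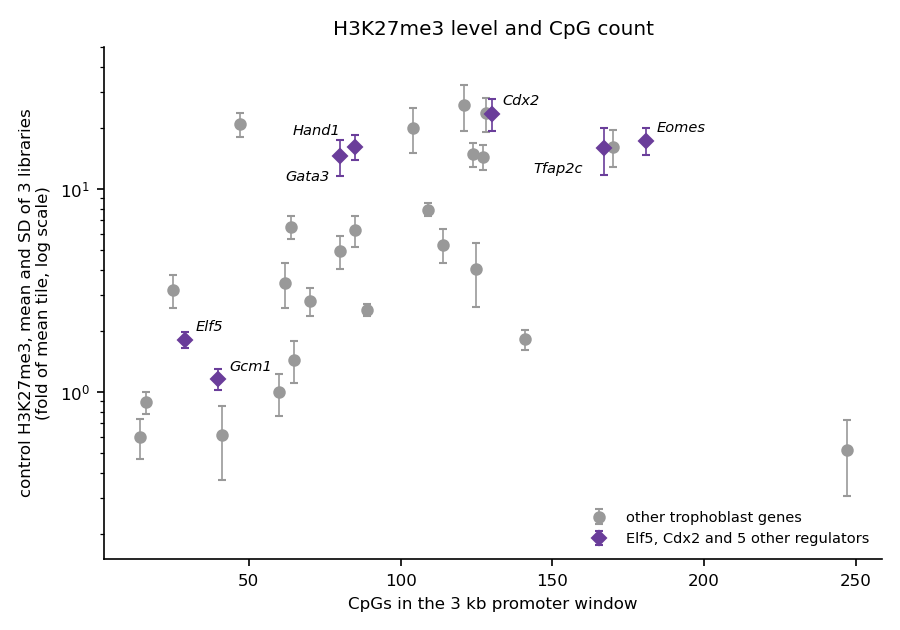
Control H3K27me3 of the promoter (vertical axis, fold of the mean tile, log scale, mean and SD of 3 libraries) against the number of CpGs in the 3 kb promoter window, for the 7 regulators (purple diamonds) and 24 other trophoblast genes (grey circles). The 5 regulators with 80 or more CpGs lie at 14.5 to 23.5 and the others, *Elf5* and *Gcm1*, with 29 and 40 CpGs, at 1.81 and 1.16. A high CpG count did not by itself go with a high level, since *Fgfr2*, with 247 CpGs, is at 0.516.

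Reference lists, 3 in number, give the range of other gene classes. Of 13 lineage genes known as Polycomb targets, all had control H3K27me3 of 2 or more, the median change at day 8 was -0.92 and 1 of 13 passed as lower, below the 11.6% of all promoters. It was *Olig2*, a gene named after its values were seen. Of 13 germline genes known to be silenced by promoter DNA methylation, 11 had 2 or more and the median change was -0.16. None passed, while 2 had an unadjusted p under 0.05 by limma, as had 6261 of 23375 promoters. The median control H3K9me2 of the germline genes was 0.913, between the levels of *Elf5* and the 5 high members. Their median H3K9me3 change was 0.52, against 0.03 for all promoters. Of 8 pluripotency genes 2 had H3K27me3 of 2 or more and 1 of 8 passed as lower, against the same 11.6%, *Klf4*, also named after its values were seen. Beside the germline medians, *Elf5* changed by -0.05 in H3K27me3 and by -0.15 in H3K9me3.

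The promoters of the nearest annotated genes were compared with the members. *Pdx1*, a pancreatic regulator 22797 bases from *Cdx2*, had control H3K27me3 of 9.18, while *Prhoxnb*, 7716 bases to the other side, had 2.8. *Gm11003*, 4946 bases from *Hand1*, had 9.56, and *Bmp7*, 309391 bases from *Tfap2c*, had 11.2. Next to *Elf5*, *Ehf*, a related ETS-family gene 108410 bases away, had 1.43, and *Cat*, the catalase gene 2860 bases away, had 1.41, both below *Elf5*. *Cat* had 0.199 in H3K9me2, against 1.56 at *Elf5*. The neighbours of *Gcm1*, *Elovl5* and *Fbxo9*, had 1.43 and 2.54. At the others, *Golga4* and *Gm17399* for *Eomes*, *Taf3* and *Gm17437* for *Gata3*, *Sap30l* for *Hand1* and 1700029J11Rik for *Tfap2c*, control H3K27me3 was between 0.598 and 3.25. Some of the nearest genes were far off, with *Gm17437* 2776346 bases from *Gata3* and *Gm17399* 307836 bases from *Eomes*. All of the nearest genes were below their member except those of *Gcm1*.

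Promoters most like *Elf5* over the 18 ChIP libraries were those of *Gm11172* (Pearson's r = 0.954), *Itgam* (0.928) and *Pmfbp1* (0.925), out of 16012 promoters with a mean of 20 reads or more. Their control levels were 1.93 to 1.96 in H3K27me3 and 1.57 to 1.73 in H3K9me2. Those most like *Cdx2* were *Cabp7* (0.997), *Ovol1* (0.996) and *Rnf213* (0.995), with H3K27me3 of 10.1 to 16.1 and H3K9me2 of 0.241 to 0.246. The points share libraries, depth and the 3 marks.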

How the data were processed

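ChIP-seq libraries of H3K27me3, H3K9me2 and H3K9me3 and 1 input were prepared by the authors, who used Trim Galore for trimming and Bowtie2 2.2.9 for alignment to NCBIM37 (submitters' processing notes) and kept alignments of mapping quality 20 and above. The authors deposited the log2 of observed over expected reads for tiles of 2 kb. Their methods give tiles of 1 kb, input was not subtracted, and removal of duplicates is not stated. The labels give H3K27me3 antibody catalogue numbers that differ between libraries, and their protocol names an H3K9me2 antibody for all.

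Low values stepped in whole reads (100% within 0.05 of a whole number), and 0.9 of a read stood in for 0 reads, so reads were recovered for all 19 libraries. Genes came from GENCODE vM1 on NCBIM37. Reads of the tiles touching a window were summed, 1 read was added for tests, and levels were divided by the mean reads per tile. Tests of day 8 cKO against control, and of marks against each other in control libraries, used limma 3.58.1 (R 4.3.3; lmFit, then eBayes with trend; two-sided; Benjamini-Hochberg adjusted over all promoters, regions or tiles, threshold 0.05). Features needed 1 read or more in any library of the fit, which all 7 members passed. Tile tests used the deposited log2 values. Ratios have exact binomial 95% limits, which cover counting error only. The fit was tested on simulated reads, which held no shifts between libraries of the kind seen in H3K27me3 at day 8. That test therefore does not show how the fit behaves under such shifts. Figures used matplotlib 3.10.9 under Python 3.11.15.

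The members and lists were chosen with earlier results of these data known. Named items followed a rule: all members, the start tile, the tile highest in control H3K27me3, the tile with the largest change per mark, up to 4 other trophoblast genes past the threshold (otherwise the highest and lowest in H3K27me3), the nearest genes and the 3 most correlated promoters. Same-numbered day 8 control and cKO libraries share only a number in the labels. One gene that this rule names, and one sequence, are not reported here.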

Additional observations from a re-analysis of the deposited data

Results flagged for a closer look

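H3K27me3 at the promoters of *Hand1* and *Gata3* went one way at day 4 and the other at day 8. The ratio of cKO to control at day 4 was 1.09 at *Hand1* and 1.04 at *Gata3*, while both day 8 cKO libraries lay below both controls. The limits of both day 4 ratios include 1, day 4 has 1 library per group, and the difference between the days was not tested.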

How the results depend on the processing

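None of the 7 promoters passed in H3K27me3 at day 8 under any alternative run except the replicate block. The same-numbered libraries correlated in their deviations with r = 0.348 (H3K27me3), 0.112 (H3K9me2) and 0.0696 (H3K9me3), but with 2 pairs and no label that ties the numbers to a culture or batch they do not establish pairs. With the replicate block 5 members passed as lower (*Cdx2*, *Eomes*, *Hand1*, *Tfap2c* and *Gata3*), also with GC bins subtracted, and all promoters past the threshold rose from 2846 to 8156 (6375 with GC bins); members passed at 6 gene regions (5 lower, and *Gcm1* higher with adjusted p = 0.0477; 5158 regions in all against 0) and at 20 tiles (of 27645 against 3067), and 14 other trophoblast genes against 6 (12 with GC bins). Counts of H3K27me3 promoters were also 948 without trend, 1514 with the day 4 pair added, 1487 for 1 kb upstream, and 125 to 4118 leaving out single libraries (125 without control replicate 1, 877 without control replicate 2, 723 without cKO replicate 2). Other trophoblast genes lower numbered 2 without trend, 3 with GC bins and 0 to 6 leaving out libraries. Regions past the threshold in H3K27me3 were 16 when centred on 100 kb windows and 0 to 1159 leaving out libraries. Tiles in H3K27me3 were 0 without trend, 5408 by limma-voom (1 member tile) and 1614 to 9727 leaving out libraries (0 to 2 member tiles). In H3K9me3 0 to 4 member tiles passed leaving out libraries, the 4 without cKO replicate 2, which leaves the shallow library alone and where 77985 of 1254762 tiles passed, against 107 with all libraries. No member region passed in H3K9me2 or H3K9me3 under the alternatives run; all regions numbered 35 in H3K9me2 (0 to 208) and 0 in H3K9me3 (1846 by limma-voom, 8 with the replicate block, 0 or 1 otherwise). H3K9me2 promoters numbered 3, with 0 without trend, with GC bins and for 1 kb upstream, 1 with day 4 added, 5 from the longest coding transcript, and 1 to 21 leaving out libraries. H3K9me3 promoters numbered 21, with 0 without trend, 46 by limma-voom, 13 from mean tile values, 12 with GC bins, 5 with day 4 added, 9 for 1 kb upstream, 3 with a pseudocount scaled to depth (chosen after seeing the data), and 13 to 1230 leaving out libraries.

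The sign of some uncalled changes turned. For H3K27me3 the *Elf5* promoter was 0.0089 from mean tile values, 0.17 with GC bins (with and without the block) and -0.17 to 0.067 leaving out single libraries, and *Gcm1* was -0.051 with GC bins (with and without the block). The *Elf5* region was -0.011 when centred and -0.063 to 0.21 leaving out libraries. In H3K9me2, leaving out libraries gave -0.098 to 0.51 at *Elf5*, -0.80 to 1.39 at *Eomes*, -0.94 to 1.09 at *Gata3* and -0.15 to 0.45 at *Gcm1*; 1 kb upstream gave -0.18 at *Eomes* and -0.10 at *Gcm1*, and GC bins -0.062 at *Gata3* (with and without the block). In H3K9me3, leaving out libraries gave -0.80 to 0.18 at *Eomes*, -0.45 to 1.03 at *Hand1*, -0.36 to 0.081 at *Gata3* and -0.11 to 0.044 at *Gcm1*; 1 kb upstream gave 0.12 at *Elf5* and -0.35 at *Tfap2c*, limma-voom -0.14 at *Hand1*, a pseudocount of 5 gave 0.26 at *Gata3* and 0.12 at *Gcm1*, and adding day 4 gave 0.043 at *Gcm1*. The control contrast of H3K27me3 with H3K9me2 at *Gcm1* was 0.23 when centred, 0.22 for 1 kb upstream and -0.19 to 0.045 leaving out sets. The causes were not tested. The contrast of H3K27me3 with H3K9me3 at *Gcm1* was also lost without trend, with a pseudocount of 5, for 1 kb upstream and with the replicate block (adjusted p = 0.0502 to 0.112). Of 686 values of single genes and tiles under alternatives, 608 kept their direction and side of the threshold, 22 were no longer past it, 25 newly passed and 31 changed sign, none of these past the threshold.

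The deposited values limit these comparisons to 2 libraries against 2 at day 8 and 1 against 1 at day 4. At promoters with few reads, as in H3K9me2 at *Eomes* and *Gata3*, leaving out 1 library changed the sign. No RNA or DNA methylation value was used here.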
